A study of Mus musculus with 4 samples.

Results

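Cholangiocyte 2 and Cholangiocyte 1 are 2 clusters that the authors drew in single-nucleus RNA-Seq (snRNA-Seq) of mouse liver. The authors named both after cholangiocytes, the epithelial cells of bile ducts, and these names are kept here as labels. The clusters were compared inside the same hepatocyte-specific Nampt knockout (HNKO) mice. Nuclei were taken by the authors' cluster name, and an HNKO mouse was used when it held at least 10 nuclei of both clusters. This left 98 of the 5193 deposited nuclei, namely 23 Cholangiocyte 2 and 75 Cholangiocyte 1 nuclei from HNKO mice 1 and 3. The study asked which liver cells carry the changes that follow loss of hepatocyte Nampt, which encodes the enzyme that recycles nicotinamide into NAD. HNKO mice were C57BL6/BomTac females with both Nampt alleles floxed (Nampt fl/fl) and Cre driven by the albumin promoter (Alb-Cre), which is active in hepatocytes and in their fetal precursors. WT mice were littermates with the floxed gene and no Cre. Per the methods, mice of both genotypes were 8 to 12 weeks old at the start and had received a purified control diet for 6 weeks. They came from a cohort of which some mice drank water with nicotinamide riboside, an NAD precursor, and the methods do not say which water the mice sampled here drank. Liver nuclei of 3 WT and 3 HNKO mice carried hashtags, antibody-bound oligonucleotides that mark the mouse, and were sequenced together, so that a mouse is known only through the authors' hashtag call.

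Cholangiocytes line the bile ducts. They alter bile by moving chloride, bicarbonate and water across their apical membrane, through the chloride channel Cftr and the transporters that work with it, and secretin is the hormone that drives this secretion. They sit on a basement membrane, carry a primary cilium, and share a fetal precursor, the hepatoblast, with hepatocytes. In injured liver, small ductular cells spread out from the portal tract, which is known as the ductular reaction, and such cells can carry biliary and hepatocyte transcripts side by side.

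Cholangiocyte 1 was nearly absent from HNKO mouse 2, whereas Cholangiocyte 2 was seen in every HNKO mouse. HNKO mice 1, 2 and 3 held 30, 1 and 45 Cholangiocyte 1 nuclei and 10, 9 and 13 Cholangiocyte 2 nuclei. Cholangiocyte 2 made up 25% (exact binomial 95% interval, 12.7 to 41.2%) of the cholangiocyte nuclei of HNKO mouse 1, 90% (55.5 to 99.7%) of those of HNKO mouse 2 and 22.4% (12.5 to 35.3%) of those of HNKO mouse 3. As a share of all nuclei, Cholangiocyte 2 stayed between 0.941 and 1.24% in the 3 HNKO mice, while Cholangiocyte 1 ran from 0.105 to 4.29%. WT mice 1, 2 and 3 held 1, 1 and 0 Cholangiocyte 2 nuclei. They held 0 Cholangiocyte 1 nuclei among 629, 778 and 724, which allows a share of up to 0.477, 0.386 and 0.414% by a floor of 3 nuclei and of up to 0.585, 0.473 and 0.508% by the exact binomial 95% interval. These intervals cover counting error only, and the tissue share of a cell type cannot be told apart from how well its nuclei survived isolation.

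Mean depth was lower in Cholangiocyte 2 in both mice, median depth in only 1 of them, and hashtags were weaker in Cholangiocyte 2. The median count of unique molecular identifiers (UMIs, each a captured RNA molecule) per nucleus was 3478 in Cholangiocyte 2 and 5186 in Cholangiocyte 1 of HNKO mouse 1, and 4905 and 4412 in HNKO mouse 3. The mean was 3915 against 7375 in HNKO mouse 1 and 5059.8 against 6430.3 in HNKO mouse 3. Summed per mouse and cluster, Cholangiocyte 2 held 38973 and 65558 UMIs and Cholangiocyte 1 held 220957 and 289024. The median share of hashtag counts from the mouse's own hashtag was 62.7% in Cholangiocyte 2 against 77.3% in Cholangiocyte 1 in HNKO mouse 1, and 32.5% against 36.6% in HNKO mouse 3. Endothelial nuclei of these mice stood at 62.8 and 27.9%. The part of weak hashtags in which nucleus went to which mouse was not tested. Nampt itself held 22 UMIs in Cholangiocyte 1 and 3 in Cholangiocyte 2, too few for a fold. Scaled to a common total as CPM (UMIs of a gene relative to all UMIs of the summed nuclei), it stood in hepatocytes at 84.1, 148 and 90.8 CPM in the HNKO mice and at 84.8, 105 and 96.9 in the WT mice, and since UMIs from any part of the gene are counted, these values do not check the deletion.

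Both clusters carried biliary genes, and hepatocyte transcripts were read in both. The 15 cholangiocyte markers, Krt19, Krt7, Epcam, Sox9, Spp1 and Pkhd1 among them, summed to 18298 and 19916 CPM in Cholangiocyte 2, to 9513 and 10158 in Cholangiocyte 1 and to 772 and 765 in hepatocytes of HNKO mice 1 and 3. Pkhd1 and Bicc1 made up most of this sum in both clusters. The list also holds Cftr, which was picked as a marker of this comparison. The textbook duct keratins were close to absent, with 0 Krt19 UMIs in Cholangiocyte 1 and 2 in Cholangiocyte 2, and 1 and 5 Krt7 UMIs. Epcam held 4 and 5 UMIs, and Sox9, a duct transcription factor, 26 and 3. These counts are not scaled, and they come from 509996 UMIs in Cholangiocyte 1 and 104534 in Cholangiocyte 2, so they do not compare levels. The 20 hepatocyte markers summed to 2191 and 2349 CPM in Cholangiocyte 2 and to 5381 and 4628 in Cholangiocyte 1, beside 40147 and 16957 in hepatocytes. Each of the 20 was read in Cholangiocyte 1 of at least 1 of the mice, and only Acaa1b was at 0 in Cholangiocyte 2 of both. The 8 endothelial markers summed to 0 and 30.7 CPM in Cholangiocyte 2 and to 9.04 and 47.3 in Cholangiocyte 1, beside 10680 and 9228 in endothelial nuclei, with Stab2, Kdr, Cdh5, Stab1, Tek and Tie1 at 0 in Cholangiocyte 2. The 11 stellate markers summed to 233 and 234 in Cholangiocyte 2 and to 146 and 145 in Cholangiocyte 1, beside 7171 and 5937 in stellate nuclei. In Cholangiocyte 2, 8 of the 11 were at 0, Dcn, Lrat, Col1a1 and Pdgfrb among them, and the sum came from Reln, Col3a1 and Rgs5. Of the 9 mesothelial markers 7 were at 0 in Cholangiocyte 2, and their sum of 156 and 217 came from Gpm6a with 19 UMIs and Msln with 1. Kupffer cell markers summed to 77.8 and 146, lymphocyte markers to 25.9 and 261, Schwann cell markers to 60.5 and 99.6 and portal fibroblast markers to 0 and 15.3 in Cholangiocyte 2, and smooth muscle markers were at 0 in both clusters. In Cholangiocyte 1 these stood at 58.8 and 35.5, 10.5 and 13.9, 72.4 and 37.8, and 6.78 and 3.38. Cholangiocyte 2 of HNKO mouse 2 lay higher in 2 of these lists. It held 807 CPM of the mesothelial markers, from 29 UMIs with 8 of the 9 genes at 0, and 250 CPM of the Schwann cell markers, from 9 UMIs.

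The 5 genes that mark the comparison were all higher in Cholangiocyte 2 of both mice, without overlap. They were picked as its markers, so their direction is no test and the values only describe its size. Slit2, Pdgfd, Cdh6, Thsd4 and Cftr encode a secreted guidance cue, a platelet-derived growth factor, a cadherin, a matrix protein and the apical chloride channel. Pdgfd (chromosome 9, positions 6168584 to 6378850 in GRCm38, plus strand) stood at 3604 and 4085 CPM in Cholangiocyte 2 of HNKO mice 1 and 3 and at 36.2 and 64.2 in Cholangiocyte 1. The fold over both mice was 73.4 (95% counting interval, 49.7 to 113). Slit2 (chromosome 5, positions 47983138 to 48307733, plus strand) stood at 493 and 2111 against 0 and 40.5, a fold of 63.8 (35.5 to 126). It was read in 40 and 61.5% of Cholangiocyte 2 nuclei and in 0 and 4.44% of Cholangiocyte 1 nuclei and was thus not read in every Cholangiocyte 2 nucleus. Cftr (chromosome 6, positions 18170687 to 18322768, plus strand) stood at 674 and 950.4 against 4.52 and 16.9, a fold of 71.6 (31.6 to 200). Cdh6 (chromosome 15, positions 13028701 to 13173675, minus strand) stood at 1167 and 1441 against 235 and 138. Thsd4 (chromosome 9, positions 59966931 to 60522046, minus strand) stood at 1789 and 1931 against 601 and 162. These last 2 genes were thus present in both clusters. The log2 difference was 6.25 ± 0.38 for Pdgfd, 6.02 ± 0.50 for Slit2, 6.11 ± 0.56 for Cftr, 2.86 ± 0.36 for Cdh6 and 2.55 ± 0.34 for Thsd4 (fitted value ± standard error (SE) worked back from the test statistic, 2 mice). HNKO mouse 2, which entered no fit, had 9 Cholangiocyte 2 nuclei with 3088 CPM of Pdgfd, 918 of Slit2, 2309 of Thsd4 and 362 of Cdh6, all above Cholangiocyte 1 of the other mice. Its Cftr level of 55.6 rested on 2 UMIs and was far under that of the other mice.

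**Figure D1:**
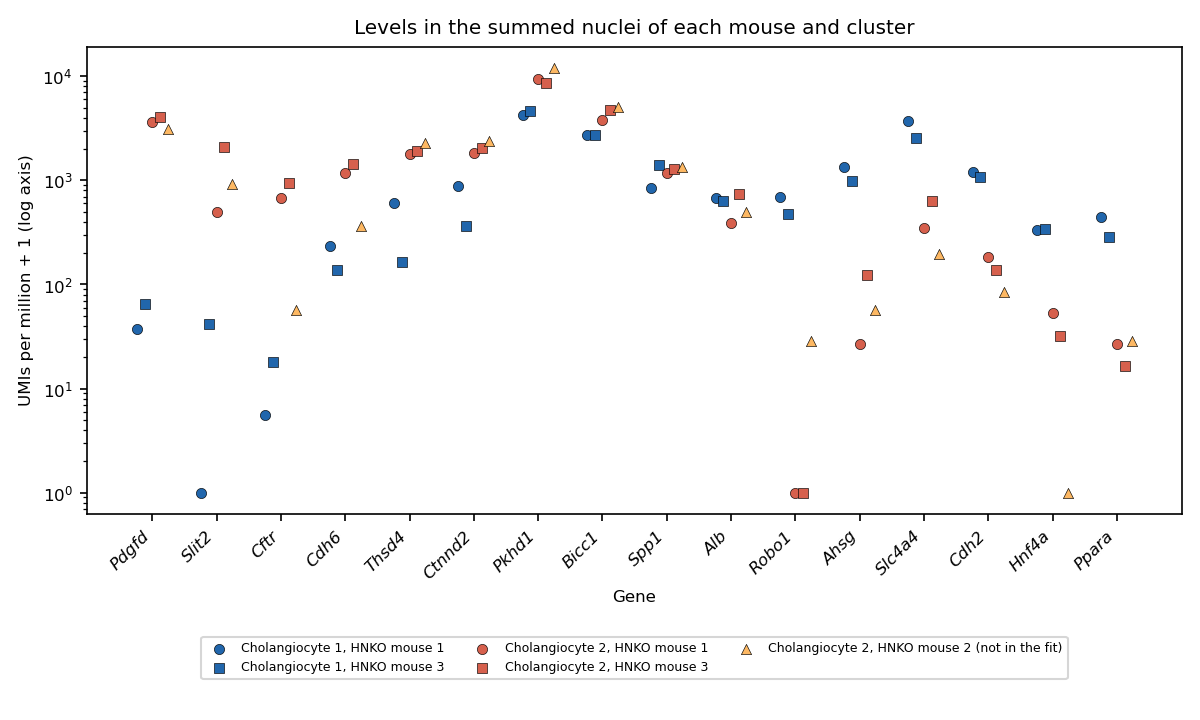
Levels of 16 genes (CPM plus 1, log axis) in the summed nuclei of each mouse and cluster, with circles and squares for HNKO mice 1 and 3 and orange triangles for Cholangiocyte 2 of HNKO mouse 2. Pdgfd, Slit2, Cftr, Cdh6 and Thsd4 lie higher in Cholangiocyte 2 (red) than in Cholangiocyte 1 (blue), Spp1 and Alb do not separate the clusters, and Robo1 is at 0 in Cholangiocyte 2 of HNKO mice 1 and 3.

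RNA set free from broken cells gives stray UMIs in any nucleus, so shares of nuclei were also read at 1 depth and beside a type that should lack the gene. Thinned to 1500 UMIs per nucleus, Pdgfd was read in 100 and 92.3% of Cholangiocyte 2 nuclei and in 0 and 6.67% of Cholangiocyte 1 nuclei, against 100 and 92.3% and 10 and 11.1% without thinning. Hepatocytes, which should lack it and had a median of 5786 and 4800 UMIs, gave 1.35 and 1.18% without thinning and 0.617 and 0.355% with it. Cftr was read in 70 and 53.8% of thinned Cholangiocyte 2 nuclei and in 3.33 and 2.22% of thinned Cholangiocyte 1 nuclei. The latter is 1 nucleus in each mouse. Without thinning the shares were 90 and 76.9% against 3.33 and 4.44%, and hepatocytes gave 0.246 and 0.354%.

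Across all genes, 448 of 3147 tested were called at a false discovery rate (FDR) under 0.05 in edgeR's quasi-likelihood test with the mouse as a block, which is 14.2%. Of these, 253 (8.04% of those tested) were higher in Cholangiocyte 2 and 195 (6.2%) were higher in Cholangiocyte 1, and 445 moved the same way in both mice. The authors drew the clusters on these same nuclei and genes, so the calls rank the genes that set the clusters apart and are no test that there are 2 kinds of cell. At least 4-fold differences made up 178 of the 253 and 110 of the 195. The filter on low counts asks for about 69.8 CPM, and 157 of the 253 lay under it in both Cholangiocyte 1 sums, as did 78 of the 195 in both Cholangiocyte 2 sums. Such genes could pass only through the cluster where they were high. With DESeq2, 139 genes were called, each of them among the 448, and 106 of these lay toward Cholangiocyte 2. Of the 55 called genes that the naming rule chose, DESeq2 called 28, gave 4 no adjusted p and did not call 23, among them Macc1, Adam33, Grhl2, Robo1, Rcan2, Arg1, Col4a5, Fn1, Onecut2, Fgfr2, Nfib, Errfi1 and Tgfbr1.

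**Figure D2:**
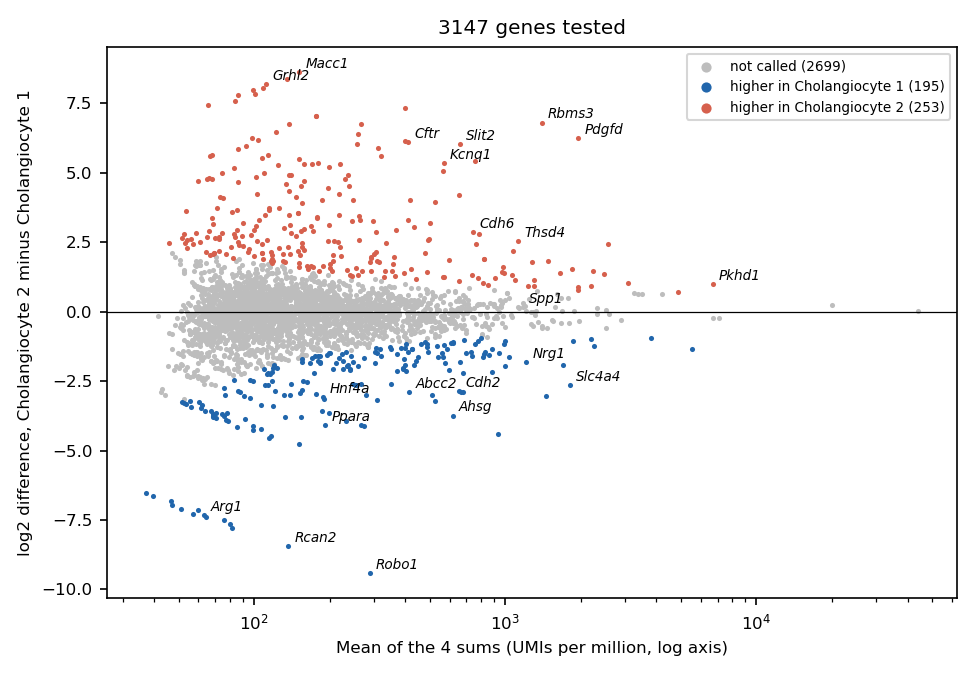
Each of the 3147 genes tested by its mean level over the 4 sums (CPM, log axis) and its log2 difference, Cholangiocyte 2 minus Cholangiocyte 1, with called genes in red and blue. Pdgfd and Rbms3 combine a high level with a large difference, and Robo1, with 0 UMIs in Cholangiocyte 2, lies lowest.

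The genes with the largest fitted differences toward Cholangiocyte 2 were mostly silent in Cholangiocyte 1. Macc1, Adam33, Grhl2, Itgb6 and Tmeff2 had 34, 27, 25, 22 and 21 UMIs in Cholangiocyte 2 and 0 in Cholangiocyte 1. Against a floor of 3 counts over both mice they were at least 55.3-fold, 43.9-fold, 40.7-fold, 35.8-fold and 34.2-fold higher. Grhl2 is an epithelial transcription factor of the grainyhead family, and Itgb6 is the epithelial integrin subunit that helps release latent TGF-beta. Grhl2 was read in 60 and 76.9% of Cholangiocyte 2 nuclei, at 156 and 291 CPM, and at 195 in HNKO mouse 2. Rbms3, an RNA-binding protein gene, stood at 2634 and 2897 against 13.6 and 33.8, and at 3032 in HNKO mouse 2. Stellate nuclei held 5790.2 and 6019 CPM of Rbms3. Of the 11 stellate markers 8 were at 0 in Cholangiocyte 2 of HNKO mice 1 and 3, and Reln, Col3a1 and Rgs5 were read there. Kcnq5, a potassium channel gene, held 74 UMIs against 2, a ratio of 181 (48.2 to 1518), but was at 0 in HNKO mouse 2. Flrt2, Prkd1, Tmem108, Dscaml1 and Rassf9 rested on 1, 1, 1, 2 and 3 UMIs in Cholangiocyte 1 and on 38, 40, 32, 51 and 57 in Cholangiocyte 2. Their lower counting limits were 31.3, 33.1, 26.1, 32.7 and 30.2.

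The largest differences the other way were genes read in Cholangiocyte 1 and not in Cholangiocyte 2. Robo1 (chromosome 16, positions 72308306 to 73046095, plus strand), a receptor of Slit ligands, stood at 686 and 470 CPM in Cholangiocyte 1, from 291 UMIs, and at 0 in Cholangiocyte 2. It was at least 19.9-fold lower there, and DESeq2 did not call it. Hepatocytes stood at 629 and 639, endothelial nuclei at 967 and 1159.6 and stellate nuclei at 833 and 465, so that Cholangiocyte 2 was the group without Robo1, and HNKO mouse 2 held 1 UMI (27.8 CPM). The ligand gene Slit2 and its receptor gene Robo1 thus lay on opposite sides of this comparison. Rcan2, a calcineurin regulator, stood at 244 and 301 against 0 and 1.53 and was at least 9.77-fold lower in Cholangiocyte 2. Cecr2, Ablim3, Rnf144b, Hc, Arg1, Pcx, Lrrc20, Pparg, Acat3 and Enpp2 had 41 to 88 UMIs in Cholangiocyte 1 and rounded to 0 in Cholangiocyte 2, and the bounds ran from at least 2.8-fold to at least 6.01-fold. Arg1, the urea cycle arginase, stood at 122 and 132 in Cholangiocyte 1, 1049 and 719 in hepatocytes and 239 and 160 in endothelial nuclei. For this gene Cholangiocyte 1 was therefore no higher than a cell type that should lack it.

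Promoters of 5 called genes are shown because the HNF1 half-site was, of 7 motifs, the one whose share differed most between the called sets. The sequences are those of RefSeq (GRCm38.p6), 250 bases before to 50 after the start, 5′ to 3′ on the gene's strand, with every match of 7 motifs in capitals. Pkhd1 (chr1:20618008-20618307, minus strand) and Dcdc2a (chr13:25055754-25056053, plus strand) are cilium genes higher in Cholangiocyte 2, Cftr (chr6:18170437-18170736, plus strand) is its chloride channel, and Robo1 (chr16:72662899-72663198, plus strand) and Hc (chr2:35061363-35061662, minus strand) were higher in Cholangiocyte 1:
Pkhd1: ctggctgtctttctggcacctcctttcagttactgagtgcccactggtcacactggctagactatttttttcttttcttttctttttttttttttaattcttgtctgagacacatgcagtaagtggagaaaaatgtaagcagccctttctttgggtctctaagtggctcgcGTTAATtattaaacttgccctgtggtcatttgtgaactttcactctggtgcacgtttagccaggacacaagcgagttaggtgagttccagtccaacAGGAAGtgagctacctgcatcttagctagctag
Dcdc2a: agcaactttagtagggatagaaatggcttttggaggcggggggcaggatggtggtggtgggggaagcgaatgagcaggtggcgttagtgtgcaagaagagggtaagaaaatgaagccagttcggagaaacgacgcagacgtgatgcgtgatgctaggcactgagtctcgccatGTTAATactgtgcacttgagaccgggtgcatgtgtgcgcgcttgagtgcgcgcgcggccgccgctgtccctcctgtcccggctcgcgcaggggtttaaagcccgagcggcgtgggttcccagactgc
Cftr: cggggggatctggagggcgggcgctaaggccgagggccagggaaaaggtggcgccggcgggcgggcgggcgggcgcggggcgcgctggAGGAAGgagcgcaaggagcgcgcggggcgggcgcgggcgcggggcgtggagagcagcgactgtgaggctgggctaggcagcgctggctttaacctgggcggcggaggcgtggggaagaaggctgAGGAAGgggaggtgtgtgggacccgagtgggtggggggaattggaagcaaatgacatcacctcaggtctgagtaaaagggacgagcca
Robo1: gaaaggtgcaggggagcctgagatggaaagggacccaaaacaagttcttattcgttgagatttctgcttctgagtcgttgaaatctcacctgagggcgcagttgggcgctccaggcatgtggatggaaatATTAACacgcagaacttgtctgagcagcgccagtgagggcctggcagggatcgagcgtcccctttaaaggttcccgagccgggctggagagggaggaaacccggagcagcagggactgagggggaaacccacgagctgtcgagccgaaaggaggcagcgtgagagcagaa
Hc: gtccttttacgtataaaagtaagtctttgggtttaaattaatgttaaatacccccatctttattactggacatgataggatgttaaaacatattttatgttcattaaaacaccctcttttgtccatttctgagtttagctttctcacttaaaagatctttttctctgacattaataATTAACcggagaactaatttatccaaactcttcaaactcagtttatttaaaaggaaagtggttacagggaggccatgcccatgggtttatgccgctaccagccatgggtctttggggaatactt

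The motifs searched on both strands were GTTAAT (HNF1 half-site), AAAGTCC (HNF4), AACCNGTT (grainyhead), AGGAAG (ETS), GGAATG (TEAD), TGTTTAC (FOXA) and TTGCNNAA (CEBP). The half-site lay 79 bases before the start in Pkhd1, 77 in Dcdc2a, 120 in Robo1 and 74 in Hc, and the Cftr window held AGGAAG 162 and 38 bases before the start and no half-site. The Robo1 window belongs to a RefSeq start that lies inside the gene as GENCODE draws it. Of genes higher in Cholangiocyte 1, 23 of the 134 with a promoter held the half-site (17.2%), against 15 of 182 genes higher in Cholangiocyte 2 (8.24%), 6.89% of the tested genes with a promoter and 8.24% of all 27025 genes with one. The other 6 motifs lay closer together. The AGGAAG motif was in 39.6% of genes higher in Cholangiocyte 1, 40.7% of those higher in Cholangiocyte 2 and 38.4% of all genes. In the same order TTGCNNAA was in 11.9, 11 and 12.2%, GGAATG in 12.7, 15.9 and 16.6%, AAAGTCC in 5.97, 7.69 and 4.84%, TGTTTAC in 3.73, 3.3 and 4.05% and AACCNGTT in 2.24, 2.75 and 2.35%. These are matches of letters and were not tested.

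Genes of biliary and ductular identity were higher in Cholangiocyte 2 or were not called. Of 30 listed, 17 passed the count filter, 9 were higher in Cholangiocyte 2 (beside 8.04% of all genes tested), 0 were higher in Cholangiocyte 1 (beside 6.2%) and 8 were not called. DESeq2 called 2 of the 17. The median log2 difference of the 17 was 0.97, beside -0.04 over all 3147 genes. Without the filter on low counts the list's median was 0.59, beside -0.70 over all genes, and its edgeR calls fell from 9 to 4. In this list and in the others, members named besides the 4 with the most UMIs were chosen after their values were seen. Ctnnd2, a delta-catenin, stood at 1823 and 2044 against 881 and 366, and Onecut2, a hepatobiliary transcription factor, at 1011 and 1226 against 719 and 466. Spp1 and Cd44, genes used as marks of ductular cells, overlapped between the clusters. Spp1, which encodes osteopontin, stood at 1167 and 1288 in Cholangiocyte 2 and 841 and 1398 in Cholangiocyte 1 (log2 difference 0.16 ± 0.31), and Cd44 at 907 and 537 against 637 and 619. The epithelial factor gene Ehf, at 285 and 307 against 4.52 and 6.75, and the stem cell surface gene Prom1, at 311 and 192 against 33.9 and 20.3, were also called. The keratin gene Krt8 stood at 143 and 146 against 149 and 133.

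The machinery of bile secretion split between the clusters. Of 24 listed genes 12 were tested. Of these, 7 were higher in Cholangiocyte 2 (58.3%, beside 8.04% of all genes tested), 1 was higher in Cholangiocyte 1 (8.33%, beside 6.2%) and 4 were not called. Cftr, among the 7, was picked as a marker of the comparison, so its direction is no test. The median log2 difference was 2.61. Without the filter on low counts it was 1.00, beside -0.70 over all genes, and the edgeR calls in this list fell from 8 to 5. DESeq2 called 4. Besides Cftr, Kcnq1, a potassium channel that sustains epithelial chloride secretion, stood at 1426 and 797 against 27.1 and 23.6. The secretin receptor gene Sctr was read almost only in Cholangiocyte 2, with 13 UMIs against 2 in Cholangiocyte 1 and a ratio of 31.7 (7.18 to 289), and the calcium-gated chloride channel gene Ano1 held 16 against 1, a ratio of 78.1 (12.1 to 3273). Both genes could pass the filter on low counts only through Cholangiocyte 2. The chloride importer gene Slc12a2, the glucose importer gene Slc5a1 and the efflux pump gene Abcc4 had log2 differences of 2.83 ± 0.74, 2.69 ± 0.75 and 2.52 ± 0.72. The one member higher in Cholangiocyte 1 was Slc4a4, the sodium bicarbonate cotransporter gene, at 3709 and 2549 against 349.6 and 629, a log2 difference of -2.64 ± 0.33. Hepatocytes held 1052 and 1157 CPM of Slc4a4, so that Cholangiocyte 1 lay above them and Cholangiocyte 2 below. Slc10a2, the ileal-type bile acid importer gene, held 59 UMIs against 2 and was not called. Itpr2, the calcium release channel gene, stood at 337 and 399 against 379 and 324. As a share of all UMIs the list came to 0.369 and 0.385% in Cholangiocyte 2 and 0.458 and 0.356% in Cholangiocyte 1, much of the latter being Slc4a4. In HNKO mouse 2 it came to only 0.205% in Cholangiocyte 2, close to the 0.188% in hepatocytes of that mouse.

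Cilium and polycystic disease genes were read in both clusters. Of 20 listed, 11 were tested and 2 were called, also by DESeq2, both higher in Cholangiocyte 2 (18.2% of those tested, beside 8.04% of all genes). Pkhd1, the fibrocystin gene, stood at 9372 and 8530.0 CPM against 4251 and 4668, and Dcdc2a, which encodes a ciliary doublecortin protein, at 1141 and 1435 against 402 and 307. Bicc1 and Glis3, both genes of polycystic kidney disease, stood at 3784 and 4774 against 2735 and 2756 and at 3656 and 4445 against 3426 and 1989, and were not called. Pkhd1 was no longer called without the filter on low counts, without the 10% of nuclei with the most UMIs or with nuclei thinned to 1500 UMIs. The log2 difference was 1.01 ± 0.25 for Pkhd1, 1.88 ± 0.34 for Dcdc2a and 0.64 ± 0.27 for Bicc1. Hepatocytes held 20.3 and 20.5 CPM of Bicc1.

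Basement membrane and matrix genes formed the list most shifted toward Cholangiocyte 2 by its count of calls. Of 29 listed, 16 were tested. Of these, 12 were higher in Cholangiocyte 2 (75%, beside 8.04% of all genes tested), 1 was higher in Cholangiocyte 1 (6.25%, beside 6.2%) and 3 were not called. Thsd4, among the 12, was picked as a marker of the comparison, so its direction is no test. The median log2 difference was 2.37. Without the filter on low counts the edgeR calls in this list fell from 13 to 7. DESeq2 called 4. Adamts9, a matrix protease gene, stood at 856 and 1119 against 63.3 and 64.2, and Col4a5, a collagen IV chain gene, at 889.5 and 384 against 219 and 188. Lama4, a laminin chain gene, stood at 525 and 736 against 0 and 23.6, and Col4a6 at 129.6 and 291 against 4.52 and 3.38. Fn1, the fibronectin gene, went the other way, at 207 and 229.9 against 592 and 507, with hepatocytes at 1447 and 1106. The list came to 0.594 and 0.639% of UMIs in Cholangiocyte 2, 0.203 and 0.18% in Cholangiocyte 1, 0.21 and 0.18% in hepatocytes and 0.243 and 0.207% in endothelial nuclei. Stellate nuclei stood at 0.578 and 0.389%, close to Cholangiocyte 2 in HNKO mouse 1. Nuclei overlapped in it, from 0.2 to 1.2% in Cholangiocyte 2 and from 0 to 0.766% in Cholangiocyte 1 of these mice. In HNKO mouse 2, Cholangiocyte 2 summed to 0.619%. Of 14 integrin genes 9 were tested and 3 were higher in Cholangiocyte 2 (33.3%), namely Itgb6, Itgb8 and Itga9. The 4 members with the most UMIs, Itga2, Itgav, Itga3 and Itgb1, were not called.

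**Figure D3:**
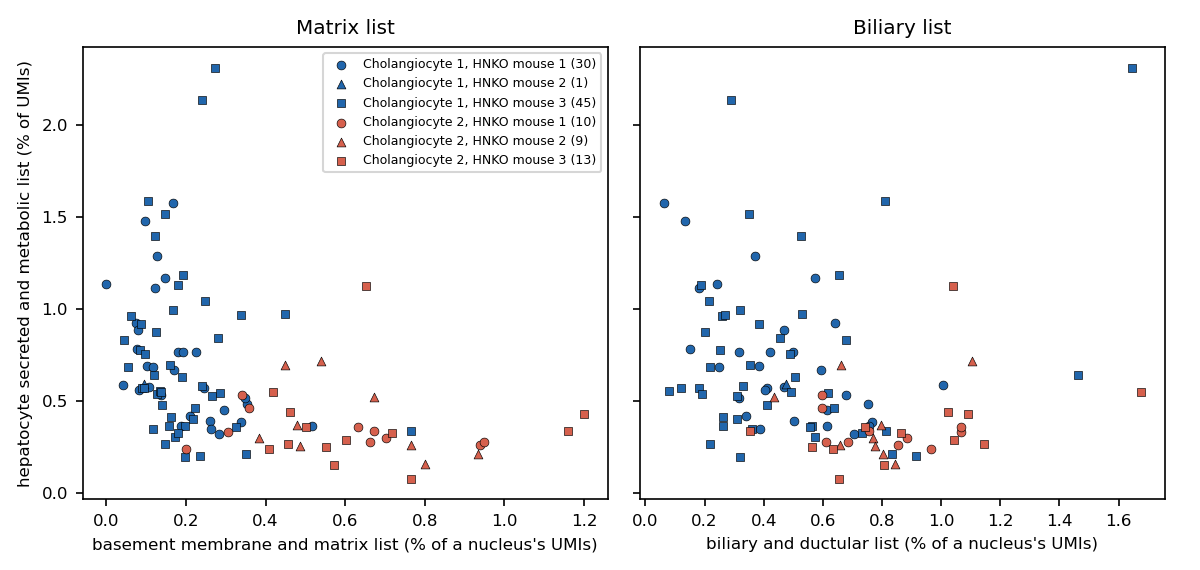
Share of each nucleus's UMIs from the hepatocyte secreted and metabolic list (vertical axis, %) against its share from the basement membrane and matrix list (left) and the biliary list (right), for all cholangiocyte nuclei of HNKO mice. Cholangiocyte 2 nuclei (red) lie toward more matrix and biliary and less hepatocyte RNA, and the clusters overlap on every axis.

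Hepatocyte transcription factor genes differed member by member. Of 20 listed, 8 were tested. Of these, 3 were higher in Cholangiocyte 1 (37.5%, beside 6.2% of all genes tested), 1 was higher in Cholangiocyte 2 (12.5%, beside 8.04%) and 4 were not called. The median log2 difference was -0.48, with -0.74 in HNKO mouse 1 and -0.19 in HNKO mouse 3 taken alone. DESeq2 called 1, Ppara. Hnf4a, the master regulator of hepatocyte identity, stood at 329 and 339.8 CPM in Cholangiocyte 1, beside 335 and 267 in the hepatocytes of these mice. In Cholangiocyte 2 it stood at 51.9 and 31, beside 97.7 and 32.3 in endothelial nuclei. Ppara, the fatty acid sensor gene, stood at 440 and 287 in Cholangiocyte 1 and 25.9 and 15.3 in Cholangiocyte 2, beside 1893 and 2422 in hepatocytes, 590 and 453 in endothelial nuclei and 116 in Kupffer nuclei of both mice. The bile acid receptor gene Nr1h4 stood at 357 and 405 against 156 and 76.6. The log2 difference was -3.08 ± 0.67 for Hnf4a, -4.10 ± 0.76 for Ppara and -1.81 ± 0.53 for Nr1h4. For Ppara, Cholangiocyte 1 was thus under the endothelial and above the Kupffer level, and Cholangiocyte 2 under both. Of the 4 members with the most UMIs, Nfib was higher in Cholangiocyte 2, at 2256 and 2805 against 1288 and 1476, and Nfia, Nr5a2 and Prox1 were not called.

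Hepatocyte secreted and metabolic genes were low in both clusters, and a few set them apart. Of 38 listed, 23 were tested. Of these, 4 were higher in Cholangiocyte 1 (17.4%, beside 6.2% of all genes tested), 0 were higher in Cholangiocyte 2 (beside 8.04%) and 19 were not called (median -0.83). DESeq2 called 2. Ahsg, which encodes the plasma protein fetuin-A, stood at 1338 and 989 in Cholangiocyte 1, 25.9 and 123 in Cholangiocyte 2, 2104 and 944 in hepatocytes and 507 and 135 in endothelial nuclei. Abcc2, the canalicular export pump gene, stood at 610.1 and 854 against 51.9 and 138, with endothelial nuclei at 677 and 525 and Kupffer nuclei at 126 and 165. Arg1 and Trf were the other called members. Alb stood at 389 and 734 in Cholangiocyte 2 and 673 and 634 in Cholangiocyte 1, and Cps1 at 700.1 and 491 against 714 and 540.3, and neither was called. Both genes were lower in the 2 clusters than in endothelial nuclei, which held 1186 and 1031 of Alb and 5738 and 1941 of Cps1 at a median depth of 3260 and 2910 UMIs, and than in Kupffer nuclei, which held 783 and 947 of Alb and 1028 and 1224 of Cps1. The whole list came to 0.328 and 0.335% of UMIs in Cholangiocyte 2, 0.709 and 0.686% in Cholangiocyte 1, 1.66 and 0.979% in endothelial nuclei, 1.04 and 0.91% in stellate nuclei, 1.83 and 1.25% in CD45+ nuclei, 0.598 and 0.635% in Kupffer nuclei and 5.63 and 2.7% in hepatocytes. Cholangiocyte 1 was therefore above Cholangiocyte 2 and Kupffer nuclei and under the other types in it, and how far free RNA enters the difference was not tested.

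Growth factor and guidance genes showed both directions. Shares of tested members are given below, beside 8.04% of all genes higher in Cholangiocyte 2 and 6.2% higher in Cholangiocyte 1. Of 20 PDGF, FGF and VEGF genes 8 were tested, 4 were higher in Cholangiocyte 2 (50%) and 0 were higher in Cholangiocyte 1. Pdgfd among these 4, and Slit2 among the axon guidance genes below, were picked as markers of the comparison, so their direction is no test. Fgfr2, a receptor gene, stood at 1538 and 1693 against 818 and 889, and Pdgfc and Fgf13 were not called. Of 31 axon guidance genes 13 were tested. Slit2, Sema3c, Sema5a, Sema6a, Epha7 and Efna5 (6 genes, 46.2%) were higher in Cholangiocyte 2, and Robo1 and Plxna2 (2 genes, 15.4%) were higher in Cholangiocyte 1. Sema5a, a semaphorin gene, stood at 1582 and 1168 against 242 and 155. Of 17 EGF family genes 7 were tested, and Nrg1, Nrg4 and Errfi1 were higher in Cholangiocyte 1 (42.9%) while Erbb4 was higher in Cholangiocyte 2 (14.3%). Nrg1, a ligand of ERBB receptors, stood at 576 and 465 in Cholangiocyte 2 against 1175 and 2631, and Erbb4, one of these receptors, at 1736 and 2883 against 685 and 589.8. HNKO mouse 2 held 8129 CPM of Erbb4 in Cholangiocyte 2, above both other mice. The log2 difference was -1.82 ± 0.34 for Nrg1 and 1.83 ± 0.31 for Erbb4. Errfi1, a feedback inhibitor of EGF receptor signalling, overlapped between the clusters across mice, at 1141 and 61.3 against 2129 and 432, and Egfr was not called. DESeq2 called 2 PDGF, FGF and VEGF genes, 5 axon guidance genes and 2 EGF family genes.

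Of 16 cadherin, catenin and desmosome genes tested among 20 listed, 4 were higher in Cholangiocyte 2 (25%, beside 8.04% of all genes tested). In Cholangiocyte 1, 2 were higher (12.5%, beside 6.2%). Cdh6, among the 4, was picked as a marker of the comparison, so its direction is no test. The classical cadherins split, with Cdh2, N-cadherin, at 181 and 138 against 1212 and 1084 and Cdh1, E-cadherin, at 829.7 and 766 against 226 and 466. Hepatocytes held 1281 and 1192 of Cdh2, whose log2 difference was -2.86 ± 0.42, beside 1.25 ± 0.37 for Cdh1. DESeq2 called 4 genes of this list, Cdh1 not among them. Of 25 tight junction and polarity genes 24 were in the table and 14 were tested, and edgeR called 0 of them, among them Magi1, Pard3, Pard3b and Magi3. Magi1 stood at 4771 and 5503 against 3579 and 3026. At an unadjusted p under 0.05 edgeR gave 2 of the 14, and DESeq2 called 0.

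The other pathway lists held 1 call each, except for the YAP-TEAD, TGF-beta and cell cycle lists with 3 of 14, 4 of 16 and 3 of 4 tested. The share higher in Cholangiocyte 2 was 12.5% of the tested Wnt genes, 14.3% of the Notch and of the YAP-TEAD genes, 18.8% of the TGF-beta genes, 20% of the chemokine and of the NAD genes and 75% of the cell cycle genes, beside 8.04% of all genes tested. The share higher in Cholangiocyte 1 was 7.14% of the YAP-TEAD and 6.25% of the TGF-beta genes, beside 6.2% of all genes tested. DESeq2 called 0 genes in the Wnt, YAP-TEAD, chemokine and cell cycle lists, 1 in the Notch and in the NAD list and 2 in the TGF-beta list. In the Notch list 7 of 23 were tested and Maml2, a coactivator gene, was the one called, at 1045 and 1441 against 45.2 and 91.2. In the YAP-TEAD list 14 of 24 were tested, 2 (Ankrd1 and Wwc1) were higher in Cholangiocyte 2 and 1 (Fat1) was higher in Cholangiocyte 1. In the TGF-beta list 16 of 26 were tested, Itgb6, Itgb8 and Ltbp2 were higher in Cholangiocyte 2, and Tgfbr1, a receptor gene, was higher in Cholangiocyte 1, at 542 and 209 against 129.6 and 61.3. In the Wnt list 8 of 26 were tested and Ror1 was higher in Cholangiocyte 2. In the chemokine and NF-kB list 5 of 29 were tested and Cxcl16 was higher in Cholangiocyte 2. In the NAD list 5 of 26 were tested and Parp8, a mono-ADP-ribosyltransferase gene, was higher in Cholangiocyte 2, at 804 and 689.8 against 54.2 and 94.6. In the cell cycle list 4 of 26 were tested, and Cdk14, Ccnd2 and Diaph3 were higher in Cholangiocyte 2. Without the filter on low counts 1 member was called. Mki67, Top2a and Cdk1 were among the members not tested. Their highest mean per nucleus in either cluster of these mice, in the authors' corrected values (SCTransform), was 0.077, 0.31 and 0. The 75% thus rests on 4 genes and does not show whether nuclei were dividing. The large duct and gland list had 0 of 17 tested and 11 without any UMI.

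**Figure D4:**
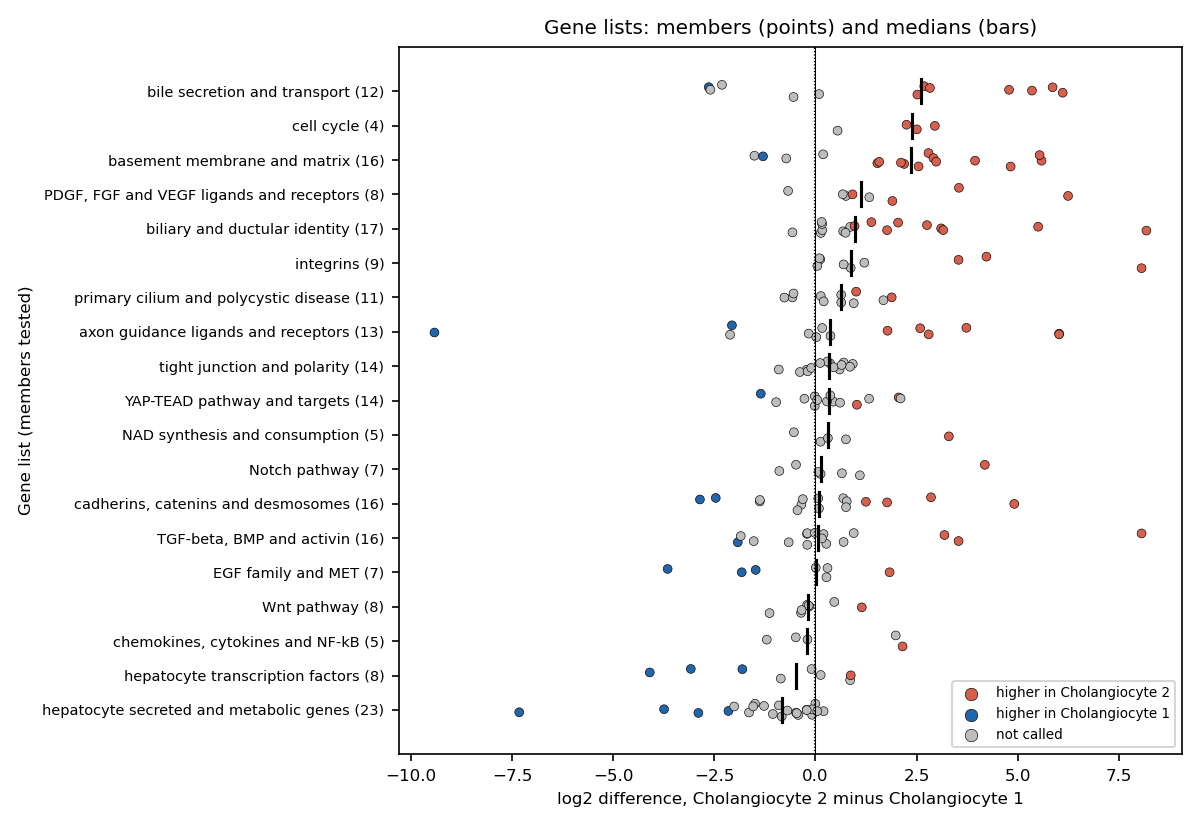
Log2 difference, Cholangiocyte 2 minus Cholangiocyte 1, of each tested member of 19 gene lists, with the list's median as a bar and the median of all genes, -0.04, as a dotted line. The bile secretion and basement membrane lists lie farthest right (medians 2.61 and 2.37) together with the 4 tested cell cycle genes, and the 2 hepatocyte lists lie farthest left.

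Set beside the other cell types of the same mice, the marks of Cholangiocyte 2 were of different kinds. Cftr, Slit2, Grhl2 and Itgb6 were at or near 0 in endothelial, stellate and hepatocyte nuclei. Pdgfd was also read in endothelial nuclei, at 393 and 379 CPM, and in stellate nuclei, at 249 and 192. Maml2 stood at 1284 and 1428 in endothelial nuclei and Lama4 at 447 and 455, near the levels of Cholangiocyte 2, although the endothelial markers were close to absent there. Over the 3147 tested genes, with each sum thinned to 38974 UMIs, Pearson's r of log2(CPM + 1) between hepatocytes and Cholangiocyte 1 was 0.53 and 0.56 in HNKO mice 1 and 3, and between hepatocytes and Cholangiocyte 2 it was 0.11 and 0.12. Cholangiocyte 1 correlated with CD45+ nuclei at 0.44 and 0.48, endothelial nuclei at 0.43 and 0.40, stellate nuclei at 0.39 and 0.40 and Kupffer nuclei at 0.32 and 0.39. For Cholangiocyte 2 these were 0.17 and 0.15, 0.20 and 0.18, 0.26 and 0.22, and 0.17 and 0.17. The clusters correlated with each other at 0.28 and 0.25. Between mice, Cholangiocyte 1 correlated at 0.61 and Cholangiocyte 2 at 0.53. These are correlations across genes, which are no independent replicates. The 3147 genes are those that passed the count filter in the 2 cholangiocyte clusters. Of these, 531 lay under its level in both sums of 1 cluster and entered through the other. Each r depends on this choice of genes, and how far it lowers r between the clusters was not tested.

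**Figure D5:**
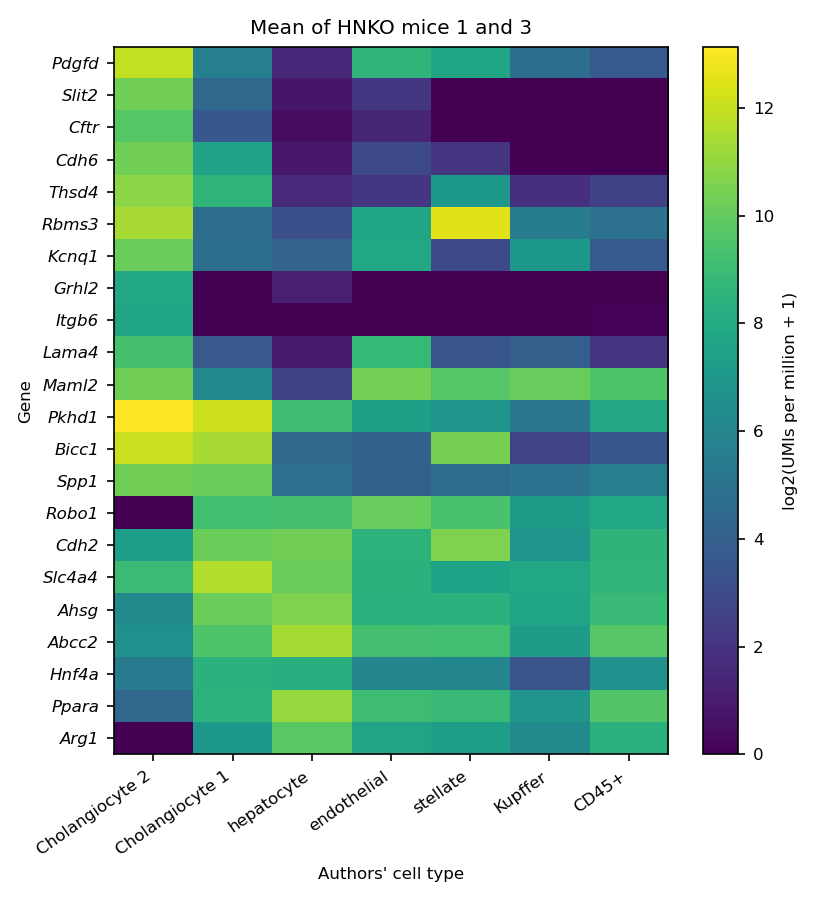
Mean level in HNKO mice 1 and 3, as log2(CPM + 1), of 22 genes in each of the authors' cell types. Cftr, Slit2, Grhl2 and Itgb6 are brightest in Cholangiocyte 2, Rbms3 is shared with stellate nuclei, Pkhd1 and Bicc1 are bright in both cholangiocyte clusters, and Robo1 is at 0 in Cholangiocyte 2 and present in every other type.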

How the data were processed

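The authors mapped reads with Alevin onto GRCm38 (GENCODE M25) and deposited estimated counts of UMIs per gene and nucleus, introns included; 10.1% of nonzero values were not whole (tolerance 0.001). They also deposited SCTransform values (a whole-number score), hashtag counts and, per nucleus, the hashtag call, genotype and cluster name. They removed nuclei without a hashtag or with those of several mice; doublets of 1 mouse remain, and no doublet caller was run here. The tables do not give a nucleus's pool.

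Here estimated counts were summed per mouse and cluster, rounded, and tested with edgeR 4.0.16 in R 4.3.3 (filterByExpr, TMM, quasi-likelihood F test, two-sided, mouse as block, FDR threshold 0.05, 1 residual degree of freedom). The mouse block is used because both clusters come from the same animals. The SE of a log2 difference is its absolute value divided by the square root of the F statistic. It is no spread between the 2 mice. CPM values are scaled by total and TMM factor for the 4 sums fitted, otherwise by total. Ratios are of rounded UMIs over both mice, with exact 95% counting intervals. A 0 was set to 3 counts over both mice for a bound. On data simulated with the totals of the 4 sums, the test recovered 64.5% of 200 genes with a log2 change of 2 among 3147, with 5 false calls. That single run set the dispersion (spread beyond counting error) to 0.05 and gave both mice the same mean levels. Neither setting was estimated from the data, so these figures are no error rates of the comparison. Gene coordinates come from GENCODE M21 (GRCm38), promoters from RefSeq, which matched 77 of the 104 named genes. Named genes were the 5 markers, Nampt, Ctnnd2 and Spp1, the 12 largest differences each way among calls with at least 20 UMIs and the same direction in both mice (unnamed gene models left out, 19 of the 448), and the 4 members of each list with the most UMIs. Members and lists were chosen with earlier results of these data known. A few genes that the rule names are not reported here. Alternatives included DESeq2 1.42.0, no block, other scalings and filters, thinning and leaving out nuclei. Scripts used Python 3.11.15, numpy 2.4.6, scipy 1.17.1, pandas 2.3.3 and matplotlib 3.10.9.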

Additional observations from a re-analysis of the deposited data

How the results depend on the processing

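With 2 mice the numbers carry limits: 1 residual degree of freedom, 23 Cholangiocyte 2 nuclei, and counting error that hides genes under about 69.8 CPM. The pairs are the 2 clusters of 1 mouse. Without the mouse as a replicate block edgeR called 347 genes in place of 448. DESeq2 called 139, adding HNKO mouse 2 with its 1 Cholangiocyte 1 nucleus left 224 calls among 1525 tested, leaving out the 10% of nuclei with the most UMIs 240 among 2375, and thinning each nucleus to 1500 UMIs 102 among 686, where fewer genes were tested. With at least 10 counts in every sum of 1 cluster 316 were called. Without a filter 344 of 15401 were called, 154 of them (44.8%) higher in Cholangiocyte 2 against 56.5% with the filter, and the median of all genes moved from -0.04 to -0.70. All 448 calls, or those of them that were tested, kept their direction in each of these. The 55 called named genes were all called under RLE size factors and library totals, and of those tested 28 of 51 were called by DESeq2, 48 of 55 without the block, 47 of 55 without a filter, 36 of 43 with HNKO mouse 2 added, 37 of 47 without the 10% of nuclei with the most UMIs and 23 of 33 with thinning. Onecut2, Fgfr2, Nfib and Wwc1 lost their call in each of these 6. The mean of SCTransform values moved by more than the spread between mice for 17 named genes and by less for 64, and 0 of the 55 called named genes changed sign in any setting, single mice included. Of the 42 not called, 27 changed sign in at least 1 setting, Alb and Spp1 among them.

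Without a filter the list medians were 0.59 (biliary), 1.00 (secretion), 0.083 (cilium), 0.042 (YAP-TEAD), 0.26 (PDGF), -0.45 (EGF), 0.31 (axon guidance), -0.28 (cadherins), 1.78 (matrix), 0.51 (integrins), -1.90 (hepatocyte transcription factors), -1.12 (hepatocyte secreted), 1.80 (cell cycle) and -0.80 (NAD), and the called members were 4 (biliary), 5 (secretion), 1 (cilium), 1 (YAP-TEAD), 2 (PDGF), 7 (matrix), 0 (Wnt), 0 (chemokine) and 1 (cell cycle). The EGF, cadherin and NAD medians changed sign here, as did Notch (-0.30), TGF-beta (-0.21) and tight junction (-0.038). With library totals the PDGF median was 1.09 and the EGF median -0.026, and with RLE 2 chemokine genes were called. Leaving out a mouse leaves no residual degrees of freedom and hence no test; the medians of single mice ran from 0.93 to 1.42 (biliary), 2.48 to 2.59 (secretion), 0.42 to 0.59 (cilium), 0.11 to 0.32 (YAP-TEAD), -0.21 to -0.051 (EGF), 0.78 to 0.84 (axon guidance), 2.02 to 2.16 (matrix), 0.77 to 0.85 (integrin), -0.74 to -0.19 (hepatocyte transcription factors), -1.09 to -0.79 (hepatocyte secreted), 1.55 to 2.12 (cell cycle), -0.025 to 0.26 (NAD), and those of 7 lists changed sign in 1 mouse or both, namely EGF, NAD, Notch (-0.28 to 0.66), TGF-beta (-0.43 to 0.44), Wnt (-0.41 to 0.15), chemokine (-0.63 to 0.31) and tight junction (-0.14 to 0.53). The mean of UMIs per nucleus was 7375 and 6430.3 in Cholangiocyte 1 and 3915 and 5059.8 in Cholangiocyte 2. The hepatocyte list's share as a median over nuclei was 0.627 and 0.582% in Cholangiocyte 1 and 0.318 and 0.328% in Cholangiocyte 2, and without the 10% of nuclei with the most UMIs 0.656 and 0.735% against 0.34 and 0.421%.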

Other observations

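Outside the gene lists, the called genes with the most UMIs were looked at, 10 in each direction, and they were chosen after their values were seen. Those higher in Cholangiocyte 2 included St3gal4, Rora, Kalrn, Ptprg, Kcnip4, Tshz2, Shank2, Etl4 and Lurap1l. St3gal4, a sialyltransferase gene, stood at 5341 and 6714 CPM in Cholangiocyte 2 of HNKO mice 1 and 3 and at 3157 and 4271 in Cholangiocyte 1. Tshz2, a zinc finger gene, stood at 2774 and 2698 against 964 and 929, and at 3727 in HNKO mouse 2. Kcnip4, a potassium channel partner gene, was far apart in HNKO mouse 3 and close in HNKO mouse 1, at 1581 and 6971 against 1427 and 278.

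Those higher in Cholangiocyte 1 were Alcam, Ext1, Immp2l, Adk, Dpyd, Psd3, Rad51b, Ghr, Chsy3 and Dusp16. Alcam, a cell adhesion gene, stood at 9961 and 6188 in Cholangiocyte 1, at 2852 and 3234 in Cholangiocyte 2 and at 2083 and 1827 in hepatocytes, so that both clusters lay above hepatocytes. Chsy3, a chondroitin synthase gene, stood at 2345 and 1234 against 77.8 and 76.6, with hepatocytes at 1109.8 and 1116. Ghr, the growth hormone receptor gene, stood at 1158 and 2033 against 441 and 368, with hepatocytes at 8495 and 8582, and Dpyd, which encodes the enzyme that degrades pyrimidines, at 2636 and 2695 against 804 and 628, with hepatocytes at 10235 and 8198.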
